A study of Mus musculus with 2 samples.

Results

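The coverings of the brain hold fibroblasts that carry transporters for small organic solutes. The 9 genes described here are transporters of this kind, chosen by name among the 26033 genes of the deposited matrices: Slc6a13, Slc6a20a, Slc13a4, Slc13a3, Slc22a6, Slc22a8, Slc22a2, Slc47a1 and Slc7a11. Their levels were read in a pair of fibroblast types, in the other cell classes and in both genotypes. The data are single-cell RNA libraries from the brains of adult mice, sorted for mural cells and fibroblasts, endothelial cells, astrocytes, border-associated macrophages and microglia. Csf1rfl/fl mice gave the control library, and they carry loxP sites in the gene of the colony-stimulating factor 1 receptor. Mice of the genotype Mrc1Cre:Csf1rfl/fl gave the mutant library, where Cre made from the Mrc1 locus, active in macrophages of the brain's borders, removes the flanked part. Both libraries share the Csf1rfl/fl alleles, so there is no wild-type library and no library with the Cre alone. There was 1 library per genotype, the number of mice behind each is not given in the sources used here, and each difference below compares these 2 libraries.

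Solute carriers of the SLC families move ions, amino acids, sulfate, metabolites and drugs across membranes. In the kidney the organic anion exchangers Slc22a6 (OAT1) and Slc22a8 (OAT3) take up anions against dicarboxylates, which Slc13a3 brings back into the cell with sodium. The organic cation carrier Slc22a2 (OCT2) takes up cations that Slc47a1 (MATE1) passes on against protons. Slc7a11 is the light chain of the cystine and glutamate antiporter xCT, and its heavy chain is Slc3a2. Slc6a13 (GAT2) carries GABA and related molecules, Slc6a20a carries proline and other imino acids, and Slc13a4 carries sulfate. In the brain several of these genes are known from fibroblasts of the pia and arachnoid and from the choroid plexus.

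The genes lie on 7 chromosomes (GENCODE annotation of GRCm38). Slc22a8 (chr19:8591254-8611835) and Slc22a6 (chr19:8618039-8628299) are neighbours on the plus strand, 6203 bases apart. Slc6a13 (chr6:121300227-121337733, plus strand) lies 5342 bases before Slc6a12. Slc13a4 (chr6:35267957-35308131, minus strand) is on the same chromosome, and Slc13a3 (chr2:165405028-165473230, minus strand) and Slc22a2 (chr17:12584132-12628488, plus strand) stand on others. Slc7a11 (chr3:49892526-50443614, minus strand) is the longest, at 551089 bases. Slc47a1 (chr11:61343401-61378345, minus strand) lies 540 bases from Slc47a2, and Slc6a20a (chr9:123634770-123678885, minus strand) lies 2204 bases from its close copy Slc6a20b. Reads that fit both Slc6a20 copies could have been left out or split in counting, so the level of Slc6a20a is uncertain to that degree.

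Sequence before the start site is shown for 3 of the genes, picked for their level in the collagen-type cells: Slc6a13 and Slc22a6 are carriers read almost only there, and Slc7a11 had the highest level there. RefSeq promoters of GRCm38.p6 were matched for 8 of the 9 genes. The stretches run 5′ to 3′ on the gene's strand and stop at the first base of an annotated exon. They are chr6:121300038-121300226 for Slc6a13 (plus strand), chr19:8617746-8617995 for Slc22a6 (plus strand) and chr3:50443615-50443863 for Slc7a11 (minus strand). Capitals mark matches to 3 motifs on either strand: TGACNNNGC (the core of the antioxidant response element), GTAAACA (forkhead factors) and TATAAA (the TATA box).
Slc6a13: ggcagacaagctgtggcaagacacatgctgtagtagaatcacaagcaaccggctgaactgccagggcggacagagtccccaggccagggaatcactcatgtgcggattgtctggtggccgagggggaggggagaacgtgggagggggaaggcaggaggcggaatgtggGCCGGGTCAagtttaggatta
Slc22a6: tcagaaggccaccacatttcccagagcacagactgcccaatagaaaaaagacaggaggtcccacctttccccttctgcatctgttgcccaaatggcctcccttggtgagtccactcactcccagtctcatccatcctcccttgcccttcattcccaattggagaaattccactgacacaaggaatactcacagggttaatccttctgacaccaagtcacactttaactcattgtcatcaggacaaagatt
Slc7a11: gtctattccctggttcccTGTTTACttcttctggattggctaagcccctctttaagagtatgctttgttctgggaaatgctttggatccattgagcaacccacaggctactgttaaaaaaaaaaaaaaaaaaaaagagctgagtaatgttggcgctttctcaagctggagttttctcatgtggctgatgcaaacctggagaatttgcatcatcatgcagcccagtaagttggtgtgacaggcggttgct
In Slc6a13 the capitals are an antioxidant response element core on the opposite strand, 82 to 74 bases before the RefSeq start. In Slc7a11 they are a forkhead match on the opposite strand, 232 to 226 bases before the start, and Slc22a6 held none of the 3. Over the 10 RefSeq promoters of the 8 genes, 250 bases before each start, 2 held TGACNNNGC (Slc6a13 and Slc13a3), 1 held GTAAACA and 0 held TATAAA. Among all 32851 such promoters the shares were 10.2%, 3.17% and 12.4%. All 250 bases were searched, also where an annotated exon covered them. The Slc22a8 window had 0 bases before such an exon. Slc6a13 gave more than 1 window, and those that start at chr6:121300490 and chr6:121303389 lie within the annotated gene. The matches are of letters and describe the windows only.

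The control matrix held 8739 barcodes with 85716531 UMIs (unique molecular identifiers, 1 for each captured RNA molecule) and the mutant matrix 8735 barcodes with 82806348. After filters on genes, mitochondrial share and doublets, 5609 control and 6123 mutant cells were kept and clustered without the 9 genes, and 17 barcodes occurred in both libraries. The collagen-type fibroblast-like cells, 44 control and 56 mutant cells (median 8270 and 8631 UMIs), carried all 8 markers fixed for them, Dcn, Lum, Col1a1, Col1a2, Col3a1, Pdgfra, Serpinf1 and Igf2. The Mgp and Ccn3 type cells, 137 control and 424 mutant cells (median 11553 and 11747 UMIs), carried Mgp at 16094 and 13733 CPM, Ccn3 at 1948 and 2451 CPM and their other 4 markers, of which Slc47a1 itself is one. A level in CPM is a gene's UMI count scaled to 1000000 UMIs of its class. UMIs are read at the 3′ end, so a level was not scaled to gene length. Whether introns were counted is not given in the sources used here. If they were, a level may depend on gene length, as for Slc7a11, the longest of the 9. Cell numbers follow the sort, and where in the coverings a cell lay was not measured.

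The fibroblast types split the 9 genes between them. In both libraries 8 genes were higher in the collagen-type cells and Slc47a1 was higher in the Mgp and Ccn3 type cells, each past 1.5-fold. Of 10579 genes with enough UMIs, 10.8% were past 1.5-fold on the collagen side in both libraries and 14.0% on the other side. Clusters were made without these genes, but Slc47a1 was among the markers that gave the second type its name, so its place there is a description. The least separated were Slc22a8, at 155 against 5.14 CPM in the control (30.1-fold, exact 95% interval 14.9 to 68.8) and 122 against 8.85 CPM in the mutant (13.8-fold, 9.37 to 20.5), and Slc13a4 in the mutant (24.3-fold, 16.7 to 36.1). The intervals hold counting error alone and leave out how cells or mice vary.

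Slc7a11, the cystine carrier, had the highest level of the 9 in the collagen-type cells, at 1920 CPM (1789 to 2058) in control cells and 1408 CPM (1310 to 1512) in mutant cells. In the control, Slc6a13 followed at 1161 CPM (1059 to 1269) and Slc6a20a at 747 CPM (666 to 835). In the mutant these stood in the opposite order, Slc6a20a at 642 CPM (576 to 713) and Slc6a13 at 537 CPM (477 to 602), with intervals that overlap. Below them the control order was Slc13a4, Slc22a6, Slc13a3, Slc22a8 and Slc22a2. The intervals of Slc13a4 and Slc22a6 overlap, as do those of Slc13a3 and Slc22a8, so these neighbours are not separated by counting error. The class held 91.8% of all Slc6a13 UMIs of kept control cells and 90.3% in the mutant, and 90.9% and 83.9% of those of Slc22a6. For Slc13a4, carried by many choroid plexus cells, it held 7.40% and 3.56%.

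Over the named classes with at least 20 cells in each library, 7 of the 9 genes had their highest level in the collagen-type cells in both libraries. The genes were chosen with earlier results of these data known. How many of all genes had their highest level there is not given here, so the count has no background. Slc47a1 was an exception to it through the Mgp and Ccn3 type cells. Slc22a8 was the other, and its highest level lay in endothelial-like cells, at 297 CPM (253 to 347) in control cells and 363 CPM (319 to 410) in mutant cells. This anion exchanger is known at the blood-brain barrier. Choroid plexus epithelium-like cells, which form the cerebrospinal fluid, carried the sulfate carrier Slc13a4 at 133 CPM in control cells against 143 CPM in mutant cells, for a ratio of 1.08 (1.01 to 1.15). They also carried Slc22a8 at 37.7 and 38.3 CPM and Slc6a20a at 29.5 and 34.6 CPM. Astrocyte-like cells carried Slc7a11 at 283 and 346 CPM, a ratio of 1.22 (1.12 to 1.33), and Slc13a3 at 51.4 and 47.7 CPM. In ependymal-like cells, which line the ventricles, Slc13a4 stood at 31.3 and 34.8 CPM.

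These 4 classes had 3, 1, 2 and 1 of the genes with at least 50 UMIs over both libraries, in choroid plexus epithelium-like, endothelial-like, astrocyte-like and ependymal-like cells. Of these 7 values, 0 were past 1.5-fold between genotypes. Among all genes 2.42% were higher and 2.03% lower past 1.5-fold in choroid plexus epithelium-like cells (4.45% in all), and 5.52% and 3.46% in astrocyte-like cells (8.97%). The shares were 7.14% and 6.58% in endothelial-like cells (13.7%), and 4.16% and 5.92% in ependymal-like cells (10.1%). Microglia-like cells, which should lack most of these carriers, held Slc13a3 at 10.5 and 11.7 CPM and Slc7a11 at 5.08 and 3.72 CPM, and the other 7 members at 1.83 CPM or less. An unnamed cluster of 16 control and 30 mutant cells carried pericyte markers beside 6 microglial markers. It held Slc6a20a at 929 CPM (741 to 1150) in control cells against 154 CPM (102 to 224) in mutant cells, for a ratio of 0.166 (0.103 to 0.259). Slc22a8 stood there at 354 and 22.8 CPM and Slc6a13 at 133 and 5.71 CPM. This cluster took no part in the ranking of named classes. In the control its Slc22a8, from 32 UMIs, lay above the 297 CPM of endothelial-like cells. Its control Slc6a20a lay above the 747 CPM of the collagen-type cells, and in the mutant both lay below. The summed pericyte markers of that cluster stood at 17380 and 4292 CPM and its microglial markers at 6457 and 12962 CPM. Their part in these differences was not tested.

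**Figure D1:**
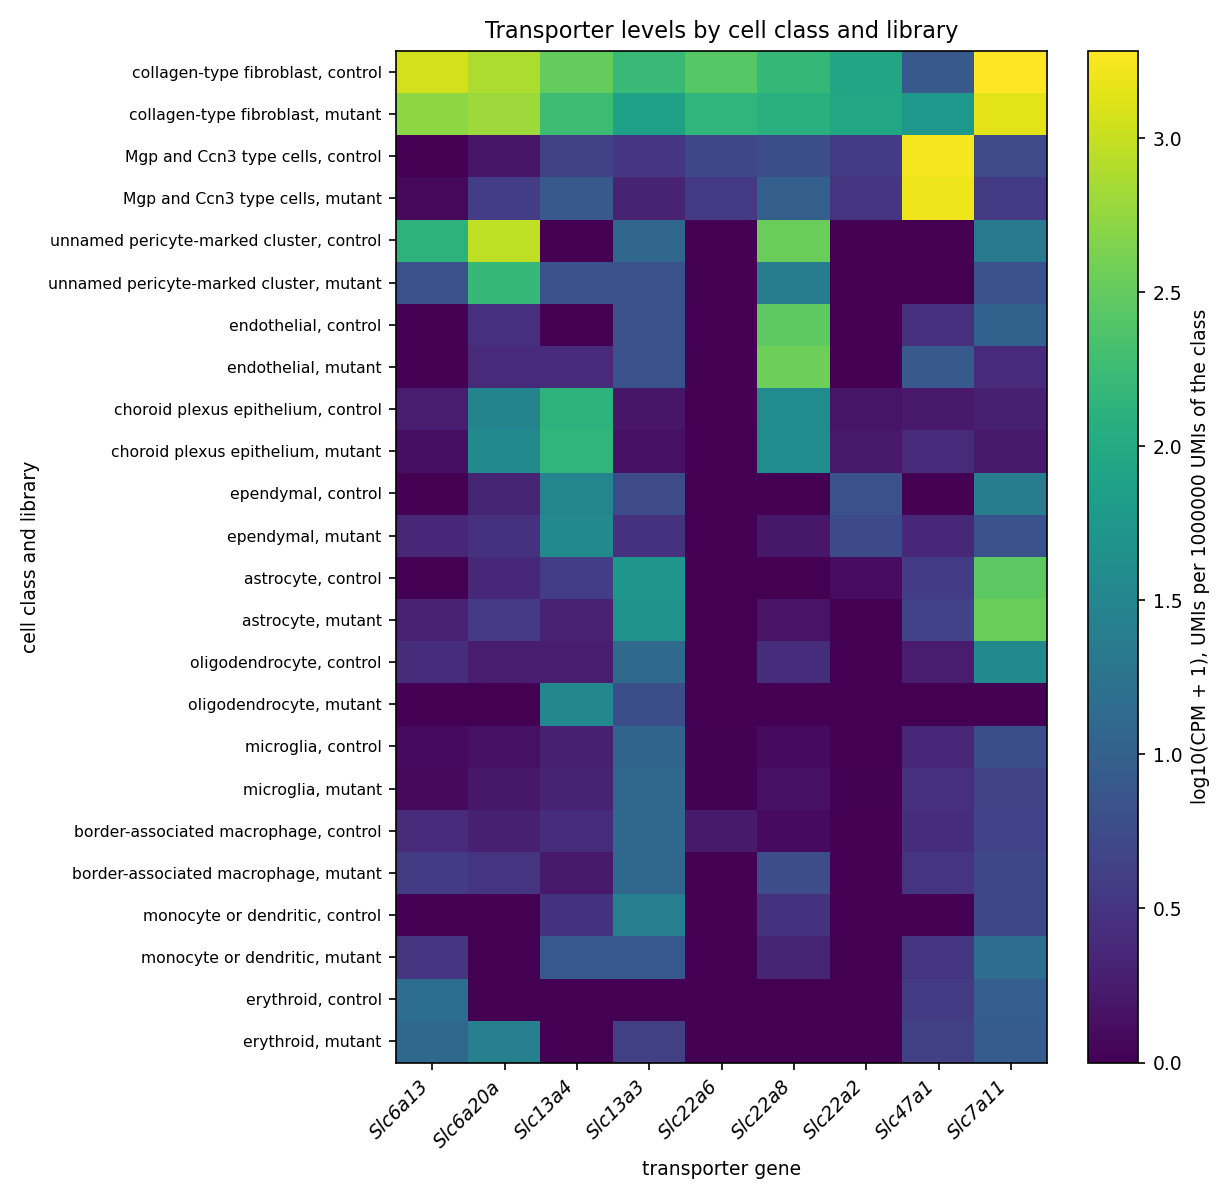
Level of the 9 transporters (columns) in each cell class and library (rows) as log10(CPM + 1), on a colour scale from dark (low) to yellow (high). The collagen-type rows are bright for all genes but Slc47a1, which is bright in the Mgp and Ccn3 type cells, while Slc22a8 is also bright in endothelial-like cells and Slc7a11 in astrocyte-like cells. In the control row of the unnamed pericyte-marked cluster Slc6a20a and Slc22a8 stand at 929 and 354 CPM.

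Between genotypes, 4 carriers were lower in the mutant collagen-type cells past 1.5-fold, 0 were higher, and 4 of the 8 with at least 50 UMIs were neither. Of 3805 genes measured in these cells 10.2% were lower past 1.5-fold and 10.0% higher, 20.3% in all, and the median log2 ratio of all genes was -0.03. The 4 lower ones were the GABA carrier Slc6a13, the sulfate carrier Slc13a4, the dicarboxylate carrier Slc13a3 and the anion exchanger Slc22a6. There is no replicate check and no test of these differences. The makeup of the class also differed between the libraries, and the ratios within its larger portion are given further on.

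Slc6a13 stood at 1161 CPM in control cells against 537 CPM in mutant cells, for a ratio of 0.462 (0.398 to 0.536). Over control cells its level ran from 0 through a median of 1295 to 3672 CPM, and over mutant cells from 0 through a median of 155 to 3451 CPM. The ranges of single cells overlapped, and more mutant cells had no UMI. A UMI of Slc6a13 was found in 38 of 44 control cells, or 86.4% (exact Clopper-Pearson interval 72.6 to 94.8), and in 29 of 56 mutant cells, or 51.8% (38.0 to 65.3). With each cell thinned to 2000 UMIs the shares were 79.5% of 44 and 42.6% of 54 cells, 2 mutant cells being too shallow. In microglia-like cells (median 8651 and 8532 UMIs) the unthinned shares were 0.246% and 0.169%.

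Slc6a20a stood at 747 CPM in control cells against 642 CPM in mutant cells, for a ratio of 0.859 (0.735 to 1.005). A single mutant cell held 25.9% of the mutant UMIs, and without the top cell of each library the ratio was 0.678. The imino acid carrier was found in 34 control and 27 mutant cells, with medians of 591 and 0 CPM per cell. Slc6a12, the neighbour of Slc6a13 and a betaine carrier, had 10 and 34 UMIs, and Slc6a20b 2 and 8, too few to be compared.

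Slc13a4 stood at 317 CPM (265 to 376) in control cells against 179 CPM (146 to 219) in mutant cells, for a ratio of 0.567 (0.431 to 0.742). It was found in 32 control cells, or 72.7%, and in 25 mutant cells, or 44.6%. Its highest cells stood at 1470 CPM in control cells and 1542 CPM in mutant cells. Slc13a3 stood at 164 CPM (128 to 209) against 74.0 CPM (52.9 to 101), for a ratio of 0.450 (0.297 to 0.675), and was found in 25 control and 16 mutant cells. With equal weight for each cell the ratios were 0.677 for Slc13a4 and 0.694 for Slc13a3, neither past 1.5-fold. The mutant mean of Slc13a3 over cells, 109 CPM, included 1 cell at 1709 CPM, and the next highest stood at 832.5 CPM. The equal-weight ratio without that cell is not given here. In the 15 control and 20 mutant cells of a per-cell marker gate the ratio of Slc13a4 was 0.916 (0.582 to 1.45). That gate drew on all kept cells, and its cells held Slc47a1 at 366 and 296 CPM, so its cell mix differed from that of the class. In both sodium-coupled anion carriers the mutant had fewer cells with a UMI, while the highest cells were no lower than in the control.

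Slc22a6 stood at 266 CPM (219 to 321) in control cells against 144 CPM (114 to 180) in mutant cells, for a ratio of 0.543 (0.401 to 0.732), and was found in 28 control and 18 mutant cells. Its neighbour Slc22a8 stood at 155 CPM (119 to 198) against 122 CPM (94.4 to 155), for a ratio of 0.789 (0.551 to 1.13), and was found in 17 and 19 cells, 1 of which held 36.4% of the mutant UMIs. The cation carrier Slc22a2 stood at 87.1 and 92.5 CPM, a ratio of 1.06 (0.679 to 1.68), in only 7 control and 10 mutant cells. For both, the interval includes 1 and also reaches past 1.5-fold, so a difference of that size is not excluded.

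Slc7a11, at 1920 and 1408 CPM, had a ratio of 0.733 (0.663 to 0.811). Its highest cells stood at 7953 CPM in control cells and 10332 CPM in mutant cells, and its medians were 1611 and 402 CPM per cell. It was found in 36 control cells, or 81.8%, and 29 mutant cells, or 51.8%. Slc47a1 had 3 UMIs in the control and 30 in the mutant collagen-type cells, 73.3% of the latter in 1 cell.

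**Figure D2:**
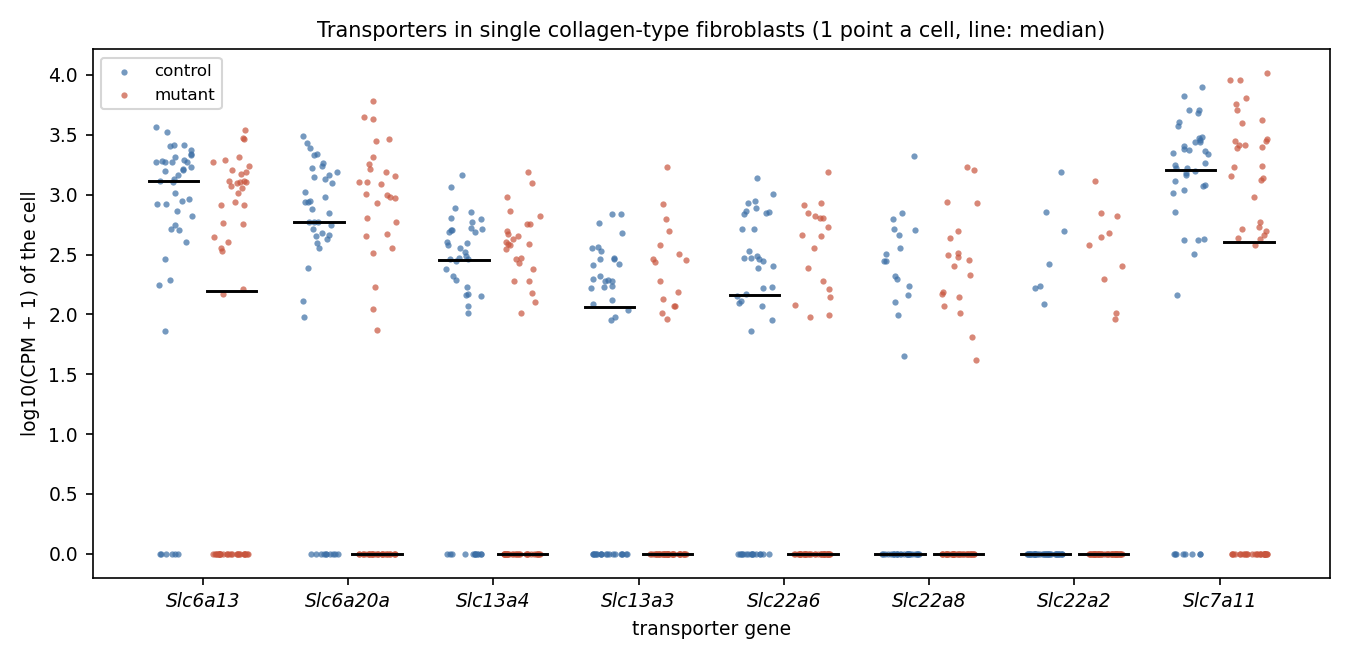
Level of 8 transporters in single collagen-type fibroblast-like cells of the control (44 cells, blue) and the mutant (56 cells, red) as log10(CPM + 1), 1 point a cell, with a black line at the median. Cells with a UMI span similar levels in both libraries, and a UMI was found in a smaller share of mutant cells for 7 of the 8 genes, as for Slc6a13 (86.4% against 51.8%) and Slc22a6 (63.6% against 32.1%), but not for Slc22a2 (15.9% against 17.9%). How many of all genes had a smaller share is not given here, so the 7 have no background. Slc22a8 was found in 17 of 44 and 19 of 56 cells. In the Vtn-bearing groups described below its counts were 16 of 36 control and 18 of 33 mutant cells.

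Cells with one of the carriers often had others. In the control, 34 of the 38 cells with a UMI of Slc6a13 also had one of Slc6a20a and 35 one of Slc7a11, against 0 and 1 of the 6 cells without Slc6a13. In the mutant the counts were 25 and 27 of 29 cells with Slc6a13, against 2 and 2 of the 27 without it. The median number of the 9 genes found per cell was 6 in the control and 3 in the mutant. None was found in 3 of 44 control and 18 of 56 mutant cells. After thinning to 2000 UMIs the medians were 4 and 2, and the share with any of the genes was 84.1% and 61.1%. In microglia-like cells the same share was 3.88% and 3.79%.

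The collagen-type class was not uniform, and sub-clustering it without the 9 genes, a step chosen after the data were seen, gave 7 groups of 4 to 28 cells. In 4 of them at least 50% of the cells had a UMI of Vtn, the gene of the matrix protein vitronectin. These Vtn-bearing groups held 36 control cells, or 81.8% (67.3 to 91.8), and 33 mutant cells, or 58.9% (44.98 to 71.9). The other 3 held 8 control and 23 mutant cells, of which 2 and 14 had none of the 9 genes. In the Vtn-bearing groups 1 control and 4 mutant cells had none. Whether the tissue taken, cell capture or the genotype set this makeup cannot be told apart with 1 library each.

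Among the Vtn-bearing groups, one led by the basement membrane genes Lama1 and Col4a2 (10 control and 14 mutant cells) had the highest Slc6a20a, at 1744 CPM, with Slc6a13 at 1593, Slc7a11 at 3790 and Slc22a8 at 430 CPM, and 0 UMIs of Slc22a2. A small one led by Alcam and Sidt1 (4 and 5 cells) had the highest Slc22a2, at 531 CPM, and Slc22a6, at 760 CPM, with Slc22a8 at 62.5 CPM. The anion exchangers Slc22a6 and Slc22a8 thus had opposite orders in these 2 groups although they are neighbours on the chromosome. The largest, led by Col1a1 (17 and 11 cells), had Slc7a11 at 1419 and Slc6a13 at 1076 CPM. A group led by the microglial genes Ly86, Ctss and C1qa (5 and 3 cells) had lower levels of most carriers, with Slc6a13 at 320 CPM, Slc6a20a at 308 CPM and Slc7a11 at 542 CPM, while its Slc13a3 at 111 CPM lay above the Lama1 group's 81.4 CPM.

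Among the 3 other groups, one led by Grm7 and Rad51b with Mgp among its leading genes (7 control and 12 mutant cells) had Slc6a13 at 118 CPM and Slc47a1 at 147 CPM. One led by Gm525 with Coch (1 and 3 cells) had 0 UMIs of all 9 genes. One with Pou3f4 and Car3 among its leading genes (0 control and 8 mutant cells) had Slc13a4 at 208 CPM and Slc6a13 and Slc7a11 at 104 CPM each. Coch, the gene of the matrix protein cochlin known from the inner ear, stood at 41194 CPM in the Gm525 group and 9197 CPM in the Pou3f4 group. Col1a1 stood at 24.9 and 0 CPM in these 2 groups, and between 456 and 39121 CPM in the other groups of the class. Their Dcn stood at 13458 CPM (Gm525 group) and 4503 CPM (Pou3f4 group). In the Pou3f4 group 4 cells had none of the 9 genes. Outside the class, an unnamed cluster with Ptprq, Xirp2 and Espn among its leading genes held 0 control and 10 mutant cells. The tissue that the cells of this cluster and of the Gm525 and Pou3f4 groups came from was not measured.

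**Figure D3:**
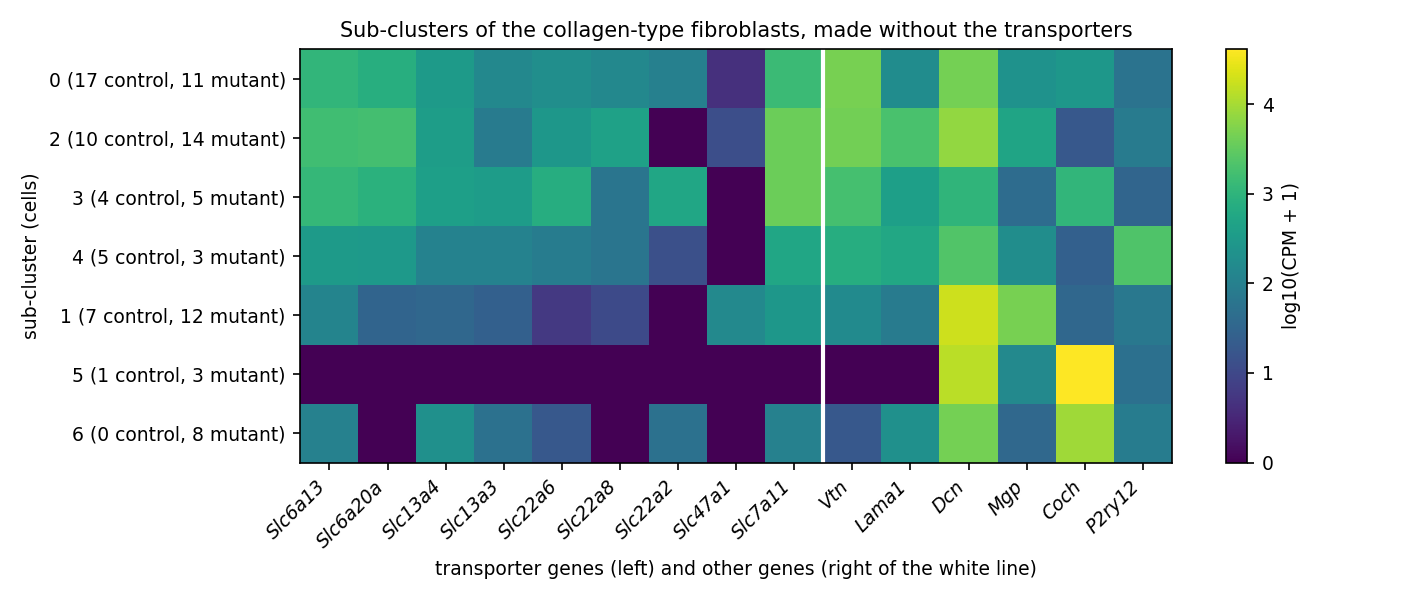
Levels of the 9 transporters (left of the white line) and of Vtn, Lama1, Dcn, Mgp, Coch and P2ry12 (right) in 7 sub-clusters of the collagen-type fibroblast-like cells, both libraries pooled, as log10(CPM + 1), with the number of control and mutant cells beside each row. In the 4 Vtn-bearing groups Slc6a13 lies between 320 and 1593 CPM, against 0 to 118 CPM in the 3 others, and Slc22a2 and Slc22a8 differ among the Vtn-bearing groups.

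Within the Vtn-bearing groups alone, 2 of the 8 carriers were lower in the mutant past 1.5-fold, against 12.5% of 2496 genes on that side and 9.01% on the other (21.6% in all). Slc6a13 stood at 1399 CPM in control cells against 855 CPM in mutant cells, for a ratio of 0.611 (0.524 to 0.711). Slc13a3 stood at 188 and 117 CPM, a ratio of 0.621 (0.402 to 0.947). Slc13a4 (0.683, 0.511 to 0.908) and Slc22a6 (0.747, 0.551 to 1.01) no longer passed 1.5-fold. Slc7a11 stood at 2258 and 2319 CPM, a ratio of 1.03 (0.926 to 1.14), and Slc6a20a at 919 and 1079 CPM, a ratio of 1.17 (1.004 to 1.37). Slc22a8 (1.09, 0.760 to 1.57) and Slc22a2 (1.38, 0.876 to 2.19) were neither. In these groups the top mutant cell held 26.3% of the mutant Slc6a20a UMIs, 36.9% of those of Slc22a8 and 18.5% of those of Slc7a11. The intervals leave this out, and the ratios of these groups without their top cells are not given here. Vtn itself, which chose these groups, stood at 5587 and 1543 CPM in them.

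**Figure D4:**
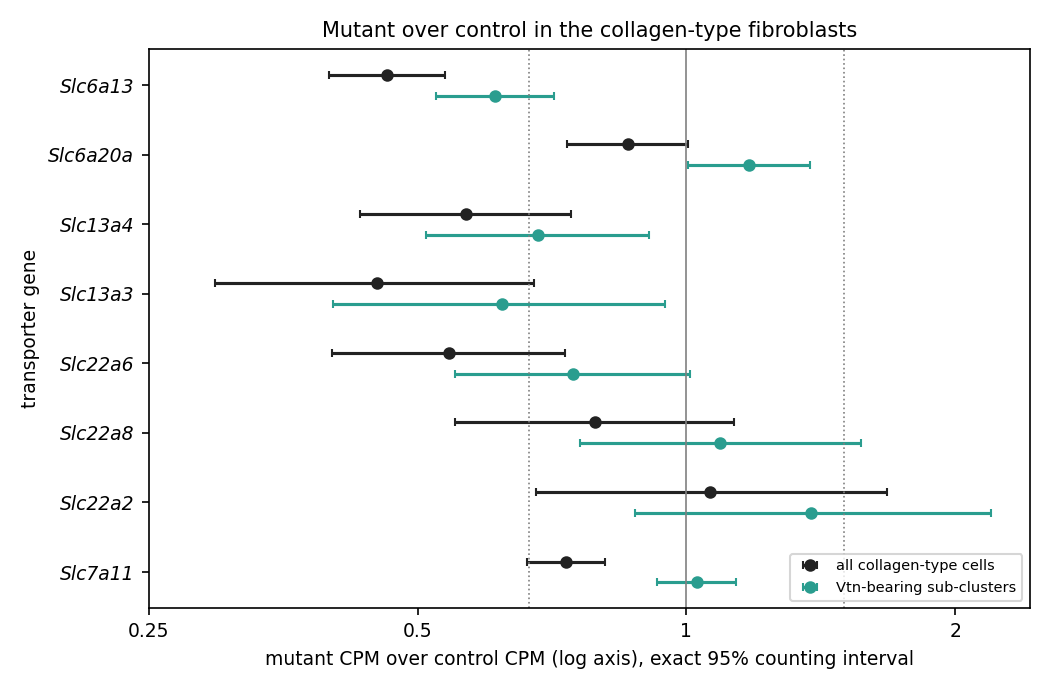
Mutant over control ratio of CPM for 8 transporters on a log axis, in all collagen-type fibroblast-like cells (black) and in their Vtn-bearing sub-clusters (green), with exact 95% counting intervals and dotted lines at 1.5-fold. Slc6a13, Slc13a4 and Slc13a3 lie below 1 with their intervals in both sets, while Slc7a11 moves from 0.733 to 1.03. In the Vtn-bearing set 1 cell held 18.5% of the mutant Slc7a11 UMIs, and 1 cell 26.3% of those of Slc6a20a.

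Other cells' RNA in the class was measured beside these ratios. Choroid plexus markers summed to 15610 CPM in control cells and 2435 CPM in mutant cells collagen-type cells with 0 of 6 at 0, and 1 control cell held 88.3% of the control Ttr UMIs. Microglial markers summed to 1245 and 1195 CPM with 0 of 6 at 0, against 16637 and 15184 CPM in microglia-like cells. Of 6 pericyte markers, which summed to 4759 and 1155 CPM, Vtn made up 4541 and 959 CPM, and 2 of 6 were at 0 in each library (Rgs5 and Higd1b in the control, Kcnj8 and Higd1b in the mutant). Smooth muscle markers summed to 341 and 25.9 CPM, endothelial markers to 210 and 109 CPM and astrocyte markers to 1323 and 1047 CPM. A single mutant cell held 70.1% of the mutant Col1a1 UMIs. Without cells over 20000 CPM of Ttr, without the Ly86 and Ctss group, or without the cell with the most Col1a1 in each library, the count past 1.5-fold was 4 each time. For the other markers their part in the ratios was not tested.

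In the Mgp and Ccn3 type cells Slc47a1, the exporter of organic cations, stood at 1733 CPM (1672 to 1796) in control cells against 1603 CPM (1570 to 1637) in mutant cells, for a ratio of 0.925 (0.887 to 0.964). It was found in 137 of 137 control and 421 of 424 mutant cells. Over cells its level ran from 77.3 through a median of 1802 to 6110 CPM in the control and from 0 through a median of 1618 to 6197 CPM in the mutant, so the ranges overlapped almost wholly. These cells held 96.4% and 98.5% of the Slc47a1 UMIs of kept cells. The other 8 carriers stood at 8.85 CPM or less in both libraries, and Slc6a13 had 0 UMIs in the control, which allows up to 1.71 CPM, and 1 in the mutant. Only Slc22a8 had enough UMIs beside Slc47a1, and its ratio was 1.72 (0.836 to 3.99) from 9 and 48 UMIs, past 1.5-fold with an interval that includes 1. Of all 10072 genes measured there 8.66% were past 1.5-fold, 4.59% as higher and 4.07% as lower.

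The arachnoid barrier markers Cdh1, Dpp4, Cldn11, Krt18 and Krt8 were fixed beside those of the fibroblast types, and the level of Dpp4 is not given here. In the Mgp and Ccn3 type cells Cdh1 stood at 69.1 and 85.9 CPM and Cldn11 at 217 and 231 CPM, with 30.7% and 40.3% of cells holding a Cdh1 UMI, while the keratins Krt18 and Krt8 were at 2.03 CPM or less. In the collagen-type cells Cdh1 was at 0 and 14.8 CPM, and the others are not given for these cells, so the list as a whole is not compared.

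The wider carrier families were counted in both types, and each count of list genes past 1.5-fold in the collagen-type cells stands beside 10.0% of all genes higher and 10.2% lower there. The lists include the 9 carriers themselves, of which 8 were measured in the collagen-type cells and 4 were lower. Of 24 organic ion carriers of the SLC22, SLC47 and SLCO families 7 were measured in the collagen-type cells, with 1 higher past 1.5-fold in the mutant, 3 lower and 3 neither, and a median log2 ratio of -0.52 against -0.03 over all genes. Slco3a1 was the higher one, at 62.9 and 130 CPM. Slc22a17 at 138 and 68.5 CPM and Slc22a23 at 140 and 77.7 CPM were lower beside Slc22a6. A single control cell held 57.9% of the control Slc22a17 UMIs, and without the top cell of each library Slc22a17 stood at 61.4 and 62.3 CPM, so its call ended. In the Vtn-bearing groups the ratio of Slc22a23 was 0.686 (0.441 to 1.06), no longer past 1.5-fold. In the Mgp and Ccn3 type cells 11 were measured, 1 higher, 1 lower (Slco2b1, 46.8 and 28.0 CPM) and 9 neither, with a median of -0.12 against 0.01. Slc47a2, next to Slc47a1 on chromosome 11, stood there at 131 and 116 CPM and had 0 UMIs in the control collagen-type cells.

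Of 12 SLC6 carriers 4 were measured in the collagen-type cells, with Slc6a6, the taurine carrier, higher at 26.6 and 102 CPM, Slc6a13 lower and 2 neither (median log2 ratio -0.25). Of the 55 mutant UMIs of Slc6a6, 51 lay in the groups that were not Vtn-bearing, and in the Vtn-bearing groups it had 6 control and 4 mutant UMIs, a ratio of 0.705 (0.146 to 2.97). Among Mgp and Ccn3 type cells Slc6a6 led the family at 410 and 384 CPM, and 0 of 3 were past 1.5-fold (median -0.09). Of 11 SLC13 and SLC26 anion carriers only Slc13a4 and Slc13a3 were measured in the collagen-type cells. The Mgp and Ccn3 type cells carried other anion carriers instead, the sulfate carrier Slc26a2 at 1339 and 1210 CPM and the exchanger Slc26a7 at 682 and 711 CPM, with 0 of 4 past 1.5-fold.

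Of 20 amino acid carriers of the SLC7, SLC3 and SLC38 families 6 were measured in the collagen-type cells, 0 higher and 2 lower (median -0.47). Slc3a2, the heavy chain that pairs with Slc7a11, stood at 464 and 242 CPM, a ratio of 0.522 (0.415 to 0.655). In the Vtn-bearing groups, where the ratio of Slc7a11 was 1.03, that of Slc3a2 was 0.609 (0.473 to 0.780). Slc38a3, a glutamine carrier, stood at 106 and 49.96 CPM. Within the Mgp and Ccn3 type the amino acid carrier Slc38a2 was the leading member at 5374 and 5477 CPM, and Slc7a8 (33.7 and 17.5 CPM) and Slc7a7 (12.6 and 7.19 CPM) were the 2 lower of 9.

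Of 15 ABC exporters, which pump lipids and drugs out of cells, 0 of 5 measured in the collagen-type cells and 0 of 9 in the Mgp and Ccn3 type cells were past 1.5-fold. Abca9 led in the control of the first at 281 CPM (192 CPM in the mutant) and Abca1 in the mutant at 217 CPM (184 CPM in the control), and the drug exporters Abcg2 (561 and 657 CPM) and Abcb1a (318 and 400 CPM) in the second. Of 24 glutathione and antioxidant genes, listed because glutathione is made from cysteine that xCT can supply as cystine, 14 were measured in the collagen-type cells, 2 higher, 1 lower and 11 neither (median -0.07). Gsta4 stood at 87.1 and 616 CPM with 55.9% of the mutant UMIs in 1 cell, and Gpx3 at 12.1 and 187 CPM with 54.5% in 1 cell. Of the 101 mutant Gpx3 UMIs 96 lay in the groups that were not Vtn-bearing, where it is a leading gene of the Gm525 group, and the Vtn-bearing groups had 0 control and 5 mutant UMIs. Mgst1 was lower at 155 and 96.2 CPM. Gpx4, which protects membrane lipids, stood at 518 and 507 CPM. In the Mgp and Ccn3 type cells 0 of 21 were higher and 2 lower, Hmox1 and Gpx3, and Gpx4 stood at 402 and 406 CPM.

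For each carrier the 3 genes with the most like levels were ranked by Pearson's r of log2(CPM + 1) over 18 points, 9 classes in 2 libraries, among 14337 genes. The points share libraries and the classes share free RNA, so r is a description. Each point sums a whole class, so a high r does not show that 2 genes lie in the same cells. Slc22a6 was most like Lum (0.985), a collagen-binding proteoglycan, then Aox3 and Inmt. Slc6a13 was most like Gm525 (0.980), Necab1 and Inmt, and Slc22a2 most like Tmem132c (0.997), Ebf2 and Crispld2. Slc7a11 was most like Ror2 (0.957), Svep1 and Prr16, and Slc6a20a most like Slc5a5 (0.964), the collagen gene Col4a6 and Abca8a. Slc13a4 was most like Angptl2 (0.941), Sytl3 and Sema3b, Slc13a3 most like Lrp4 (0.894), Cdk8 and Mterf1b, and Slc22a8 most like Tinagl1 (0.931), Lepr and Dock6. Slc47a1 was most like Ccn3 (0.969), its neighbour Slc47a2 (0.969) and the enkephalin gene Penk (0.968). Within the collagen-type class, the group led by Gm525 had 0 UMIs of Slc6a13. The group with Inmt among its leading genes had Slc6a13 at 118 CPM and Slc22a6 at 4.91 CPM. The Lama1 group, with Tmem132c and Abca8a among its leading genes, had 0 UMIs of Slc22a2 but the highest Slc6a20a.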

How the data were processed

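Each deposited matrix gives raw counts of UMIs by gene and barcode, written by Cell Ranger 7.1.0 per the file headers, for 1 control and 1 mutant library. The submitters' processing notes name the builds GRCm38.p6 and mm10. For intron counting and free RNA correction the setting is not given in the sources used here. Kept barcodes had 500 genes or more and a mitochondrial share of up to 10%, Scrublet doublets (2.62% and 2.52%) were removed, and cells were clustered with scanpy 1.11.5 (2000 variable genes, 30 components, 15 neighbours, Leiden resolution 1) without the 9 genes. Clusters were named from fixed markers, at least 3 of them in 25% of cells, and the thresholds of this naming were set after the clusters were seen. A gene was measured with 50 UMIs over both libraries. Poisson, Clopper-Pearson and conditional ratio intervals are exact at 95% for counting error and were tested on simulated data. The ratio counts there were drawn from the Poisson model that the intervals assume. That test could not show how the intervals hold where 1 cell carries much of a gene's UMIs. The genes and lists were chosen with earlier results of these data known. All 9 genes are named, with the list genes past 1.5-fold (up to 4 a direction), the 3 highest of each list and type, and the 3 most like genes of each carrier. For the last, classes of at least 40 cells per library entered in place of 50, since 44 control cells were of the collagen type. Sub-clusters used 1000 variable genes, 10 components and resolution 0.5. Promoters came from RefSeq.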

Additional observations from a re-analysis of the deposited data

Results flagged for a closer look

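Barcodes above the cap on mitochondrial UMIs took no part in the comparisons, yet they held UMIs of the 9 carriers. In the control 2845 such barcodes held 7360 of them, or 336 CPM summed over the genes, and in the mutant 2302 barcodes held 5483, or 373 CPM. A count of 0 would allow 0.137 and 0.204 CPM. In the control Slc7a11 led with 2408 UMIs (110 CPM), and in the mutant Slc47a1 with 2194 (149 CPM) and Slc13a4 with 1710 (116 CPM).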

How the results depend on the processing

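The place of the carriers held under each setting run: 9 of 9 were past 1.5-fold between the fibroblast types in both libraries, and 6 (trimmed mean scaling) or 7 (the others) had the collagen type as their highest class. For the highest class the share of all genes is not given here, so the 6 or 7 have no background. In the collagen-type cells, 4 carriers past 1.5-fold became 2 with the per-cell marker gate, 2 with equal weight per cell, 2 at 2-fold and 2 in the Vtn-bearing sub-clusters alone, the last chosen after the data were seen. Of all genes 20.3% were past 1.5-fold in the main setting, 6.07% past 2-fold and 21.6% past 1.5-fold in the Vtn-bearing sub-clusters. For the gate and for equal weight the share of all genes is not given here, so those counts have no background. The gate drew on all kept cells, and its cells held Slc47a1 at 366 and 296 CPM, against 7.25 and 55.5 CPM in the class. Its cell mix thus differed from that of the class. The gate's 2 were Slc6a13 (0.634) and Slc22a8 (0.516). There Slc13a4 stood at 0.916, while Slc22a6 (0.230, 48 UMIs), Slc13a3 (0.435, 25 UMIs) and Slc22a2 (2.32, 24 UMIs) lay past 1.5-fold under the minimum of 50 UMIs. With equal weight per cell Slc13a3 stood at 0.694, with 1 mutant cell at 1709 CPM in its mean, and Slc13a4 at 0.677. In the Mgp and Ccn3 type cells, 1 became 2 without the mitochondrial cap, 2 with doublets kept, 0 with the gate, 0 with equal weight, 7 with no minimum on UMIs and 0 at 2-fold. Of all genes there 8.66% were past 1.5-fold in the main setting, and the share under the other settings is not given here. Over all lists in the collagen-type cells 13 of 37 measured genes past 1.5-fold (35.1%, against 20.3% of all genes) became 27 of 58 with at least 20 UMIs (46.6% against 29.2%) and 8 of 37 at 2-fold (21.6% against 6.07%). These counts include the carriers described above, which gave 8 of the 37 and 4 of the 13, so they are no separate result. Of single ratios under these settings 125 stayed the same by this measure, within the counting interval, and 20 moved. Without the cap Slc6a13 stood at 0.590. Intervals at this depth, 44 and 56 cells, cover counting only. No paired analysis was possible because each group has 1 library.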
